A study of Mus musculus with 2 samples.

Results

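The 10 genes described here are the core of the NF-kB pathway and one of its best known ligands. They were chosen by symbol: the subunits Nfkb1, Nfkb2, Rel, Rela and Relb, the IkB family members Nfkbia, Nfkbie and Nfkbiz, the ubiquitin-editing enzyme Tnfaip3 and the cytokine Tnf. They are 10 of the 31053 genes in the deposited matrices, and each was found there. Single-cell RNA libraries were made from tongue tumours that the carcinogen 4NQO had induced in wild type C57BL/6 mice, a model of head and neck squamous cell carcinoma. One library came from mice given JQ1 for 10 days and the other from mice given the control treatment for 10 days. JQ1 is a small molecule that blocks the acetyl-lysine pockets of BET bromodomain proteins. The number of mice behind each library was not given in the sources used here. With 1 library per treatment no value has a replicate, no test between treatments was possible, and treatment cannot be told apart from mouse, tumour or preparation.

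NF-kB subunits pair into dimers that IkB proteins hold in the cytoplasm. Signals from receptors for TNF, interleukin-1 or microbial products activate a kinase that marks IkB for destruction, and the freed dimers enter the nucleus and switch on inflammatory genes. Among those genes are Nfkbia, Nfkbie and Tnfaip3, which shut the pathway off again, and Tnf, which feeds it further. The pathway is known for rapid cytokine release in myeloid cells and for inflammation in epithelium, and BET proteins are known cofactors at inflammatory genes.

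The promoters of 2 inhibitors and of Tnf are printed to show where letters that NF-kB is known to bind lie beside genes on which the results turn. RefSeq promoters of build GRCm38.p6 were found for 7 of the 10 genes: Nfkb2, Rel, Rela, Nfkbia, Nfkbie, Tnfaip3 and Tnf. The 250 bases before each annotated start are given 5′ to 3′ on the strand of the gene. Capitals mark matches to the kB consensus, which was searched on both strands. Nfkbia lies on the minus strand at chr12:55492648-55492897, Nfkbie on the plus strand at chr17:45555450-45555699 and Tnf on the minus strand at chr17:35202008-35202257.
Nfkbia: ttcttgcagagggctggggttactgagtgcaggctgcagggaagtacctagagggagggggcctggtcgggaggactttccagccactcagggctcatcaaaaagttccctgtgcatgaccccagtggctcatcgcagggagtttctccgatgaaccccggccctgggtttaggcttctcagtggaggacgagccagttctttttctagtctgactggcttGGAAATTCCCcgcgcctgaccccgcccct
Nfkbie: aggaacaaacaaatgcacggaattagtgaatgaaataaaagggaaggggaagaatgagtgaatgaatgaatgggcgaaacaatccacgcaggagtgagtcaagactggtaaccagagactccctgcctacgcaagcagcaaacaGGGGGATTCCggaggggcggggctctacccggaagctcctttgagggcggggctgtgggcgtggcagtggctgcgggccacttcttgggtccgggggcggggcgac
Tnf: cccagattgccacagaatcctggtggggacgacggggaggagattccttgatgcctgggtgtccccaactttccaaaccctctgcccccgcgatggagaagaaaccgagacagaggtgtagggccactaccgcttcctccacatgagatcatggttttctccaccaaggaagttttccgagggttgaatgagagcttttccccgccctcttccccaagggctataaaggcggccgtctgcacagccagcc
The match in the Nfkbia promoter begins 29 bases before the start and that of Nfkbie 106 bases before it. The Tnf window of 250 bases holds no match, and bases further upstream were not searched for any gene. Of the 10 promoters listed for the 7 genes, 7 hold a match, and they belong to 5 genes: Nfkb2, Rel, Nfkbia, Nfkbie and Tnfaip3. Some matches in Nfkb2 and Rel overlap each other. Of all 32851 promoters of this length 1281 hold a match, or 3.90%. A match is a run of letters and not a measured binding site.

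The JQ1 library held 16233 barcodes and 99565417 UMIs (unique molecular identifiers, which count RNA molecules), and the control library 9754 barcodes and 118382532 UMIs. After filtering, 14044 JQ1 cells (median 3879 UMIs) and 8150 control cells (median 11302.5 UMIs) were kept, and 40 barcodes occurred in both libraries. Marker genes placed 69.6% of the kept JQ1 cells and 90.9% of the kept control cells in 6 classes. In JQ1 and control there were 617 and 475 neutrophils, 147 and 55 macrophages, 46 and 29 dendritic cells, 357 and 194 T cells, 1246 and 5207 keratinocytes and 7357 and 1452 stromal cells. Every marker of a class's own list was detected in it, except Cd163 and Lyve1 of the 12 macrophage markers, which were at 0 in control macrophages. Transcripts of other cells occurred in every class: Muc5b, a mucin of salivary glands, stood at 404 to 1233 CPM (UMIs per 1e6 UMIs of the class) in the JQ1 classes and 0 to 31.4 CPM in the control classes. Summed keratinocyte markers stood at 200.3 to 454 CPM in the JQ1 immune classes and 487 to 1254 CPM in the control immune classes.

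Levels are UMIs summed per class and library, in CPM, with 95% Poisson intervals, and ratios are JQ1 over control with exact 95% intervals; both cover counting error only. A gene was measured in a class if both libraries together had 20 UMIs or more and the higher one 10 CPM or more. It was called higher or lower if it differed by 1.5-fold or more and its interval lay on that side of 1. In sums of this kind, less RNA per cell and fewer active cells cannot be told apart.

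Tnf had its highest levels in neutrophils and macrophages. It stood at 1545 CPM (1486 to 1607) in JQ1 and 2504 CPM (2397 to 2614) in control neutrophils, and at 1646 CPM (1552 to 1744) in JQ1 and 818 CPM (697 to 954) in control macrophages. The intervals of macrophages and neutrophils overlapped in the JQ1 library and lay apart in the control library, where neutrophils were higher. Dendritic cells had 88.3 CPM in JQ1 and 74.9 CPM in control, T cells 75.3 and 155 CPM and keratinocytes 21.4 and 47.9 CPM. The stroma was lowest, with 4.03 and 3.15 CPM.

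**Figure D1:**
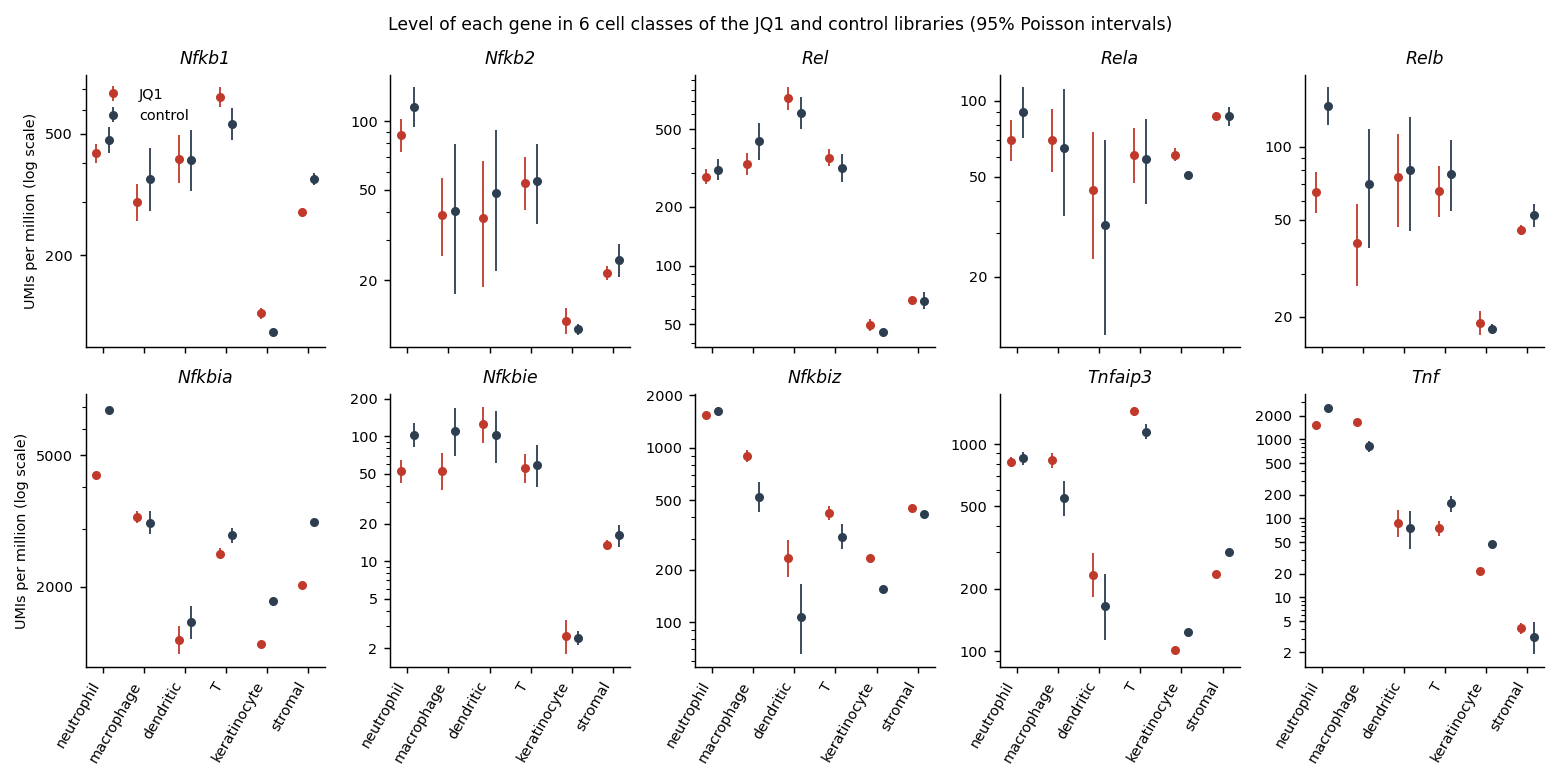
CPM (log scale) of each of the 10 genes in 6 cell classes, for the JQ1 and the control library, with 95% Poisson intervals. Tnf lies at 1545 in JQ1 neutrophils and 4.03 in JQ1 stroma, while Rela stays between 32.1 and 90.7 over all classes and libraries.

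The subunits differed in the class with their highest level. Nfkb1, whose product is cut to a DNA-binding subunit, was highest in T cells at 661 CPM in JQ1 and 539 CPM in control, and the control interval overlapped that of neutrophils (478 CPM). Rel, a subunit known from lymphocytes and antigen-presenting cells, was highest in dendritic cells at 723 CPM (629 to 827) in JQ1 and 609.6 CPM (503 to 732) in control, where the control interval overlapped that of macrophages. Nfkb2, the precursor of the non-canonical pathway, was highest in neutrophils at 87.2 CPM in JQ1 and 116 CPM in control. Keratinocytes were lowest in all 3, with 129 and 112 CPM of Nfkb1, 49.4 and 45.4 CPM of Rel and 13.2 and 12.2 CPM of Nfkb2.

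Rela, the main activating subunit, spread from 44.1 to 87.3 CPM over the JQ1 classes and from 32.1 to 90.7 CPM over the control classes, and every pair of neighbours in its order had overlapping intervals. Stroma and keratinocytes, which were not neighbours, lay apart. In JQ1 they had 87.3 CPM (84.2 to 90.5) and 61.2 CPM (57.5 to 65.1). In control they had 86.8 CPM (79.5 to 94.5) and 50.9 CPM (49.5 to 52.3). Relb, the partner of Nfkb2, was lowest in keratinocytes at 18.9 CPM in JQ1 and 17.8 CPM in control. Its highest JQ1 level was 74.7 CPM in dendritic cells, which overlapped T cells and neutrophils, and its highest control level was 147 CPM in neutrophils, which overlapped dendritic cells.

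The inhibitors had patterns of their own. Nfkbia (IkB alpha, the inhibitor known for fast resynthesis after a signal) was highest in neutrophils at 4365 CPM in JQ1 and 6844 CPM in control. It was lowest in keratinocytes in JQ1 (1349 CPM), where the interval of dendritic cells overlapped, and in dendritic cells in control (1567 CPM). Nfkbiz, an atypical nuclear IkB protein needed for a later set of target genes, was also highest in neutrophils at 1542 CPM in JQ1 and 1629.7 CPM in control. Nfkbie, a further cytoplasmic IkB protein, was highest in dendritic cells in JQ1 (126 CPM) and in macrophages in control (110.4 CPM), where neutrophils (103 CPM) and dendritic cells (102 CPM) had overlapping intervals, and it stood at 2.49 and 2.41 CPM in keratinocytes. Tnfaip3, which edits signalling ubiquitin chains below the TNF receptor, was highest in T cells at 1443 CPM in JQ1 and 1147 CPM in control and lowest in keratinocytes at 101 and 124 CPM, where the control interval of dendritic cells overlapped.

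The classes that supplied Tnf UMIs differed between the libraries together with their cell numbers. Neutrophils held 59.2% of the Tnf UMIs of the 6 classes in JQ1 and 29.1% in control, macrophages 26.8% and 2.29%, and keratinocytes 8.23% and 67.1%. The 6 classes held 4279 of the 5851 Tnf UMIs of kept JQ1 cells and 7111 of the 8003 of kept control cells. Of the Tnf UMIs of all kept cells, neutrophils held 43.3% in JQ1 and 25.9% in control. On that base macrophages held 19.6% and 2.04% and keratinocytes 6.02% and 59.6%. Keratinocytes were 8.87% of kept JQ1 cells and 63.9% of kept control cells.

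**Figure D2:**
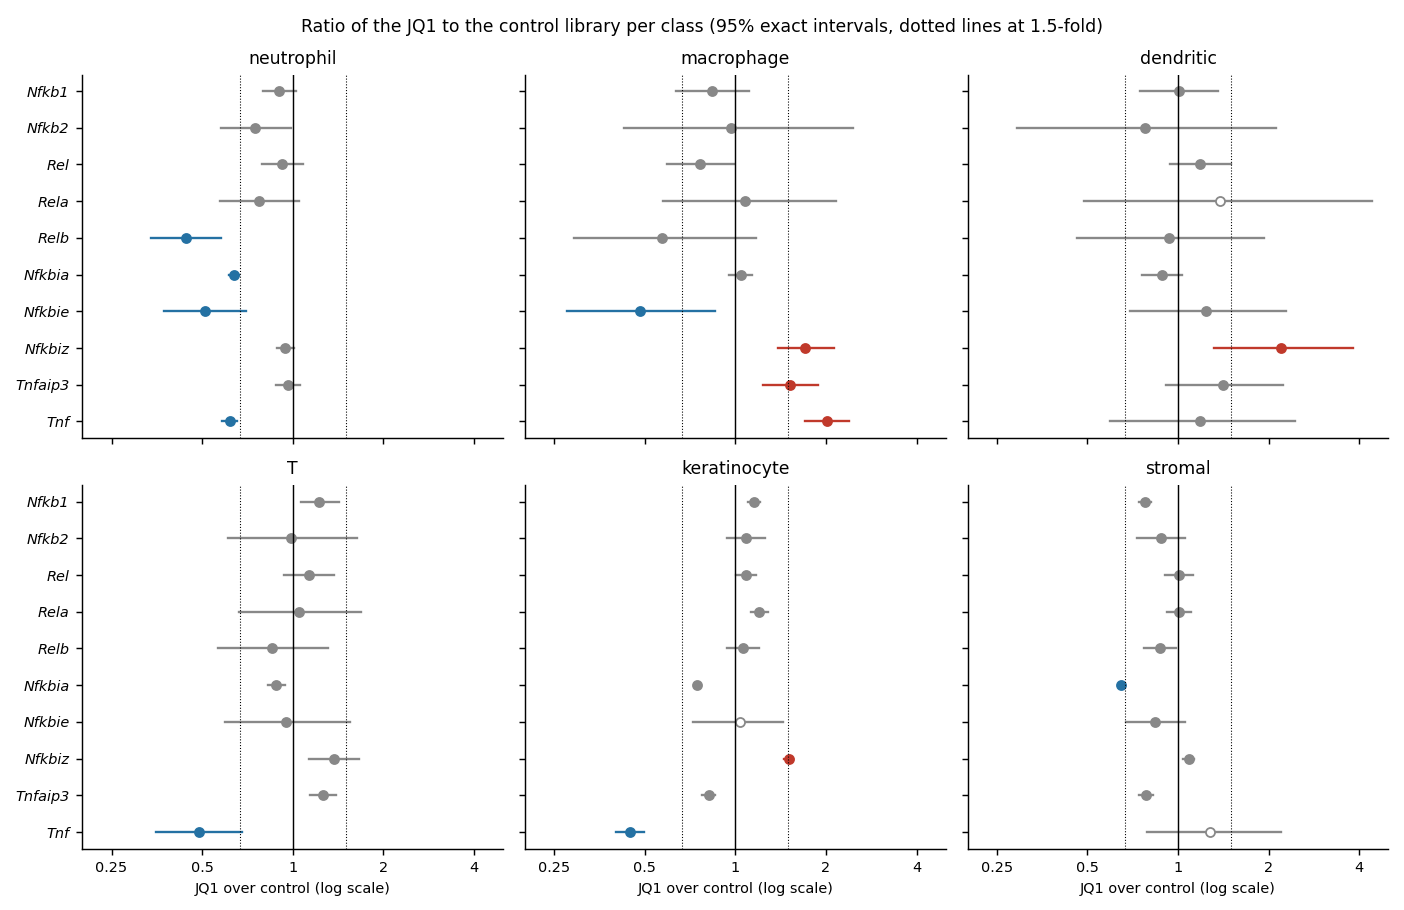
Ratio of JQ1 over control (log scale) for each gene in each class, with exact 95% intervals and dotted lines at 1.5-fold. Red points were called higher, blue points lower and grey points neither, and open points were not measured. Tnf is blue in neutrophils, T cells and keratinocytes and red in macrophages.

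In neutrophils 4 of the 10 genes were lower in JQ1 and none was higher. All 10 were measured, and over the 6130 genes measured 10.5% were lower and 20.4% higher. Relb stood at 65.3 CPM in JQ1 and 147 CPM in control, a ratio of 0.44 (0.34 to 0.58). Nfkbie stood at 52.5 CPM in JQ1 and 103 CPM in control, a ratio of 0.51 (0.37 to 0.70). Nfkbia had a ratio of 0.64 (0.62 to 0.66) and Tnf one of 0.62 (0.58 to 0.65), so that a subunit, a pair of inhibitors and the ligand were all lower. The ratios of the 6 other genes ran from 0.75 for Nfkb2 to 0.96 for Tnfaip3. The median log2 ratio of the 10 was -0.39, against 0.18 over all measured genes.

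The neutrophils of the libraries also differed in kind. A cluster rich in Camp and Ngp, granule genes of developing neutrophils, held 141 of 617 JQ1 neutrophils and 5 of 475 control neutrophils. Its cells supplied 768978 of the 1639624 UMIs of JQ1 neutrophils and 14042 of the 827133 UMIs of control neutrophils. Over all neutrophils Camp stood at 18240.2 CPM in JQ1 and 75.0 CPM in control. The JQ1 cells of this cluster had 139 CPM of Tnf and 1328 CPM of Nfkbia, far below the 2982 and 7491 CPM of JQ1 cells in the cluster led by the chemokines Ccl3 and Ccl4.

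That cluster held 465 JQ1 and 462 control neutrophils, and within it 3 of the 4 calls were absent. Tnf stood there at 2982 CPM in JQ1 and 2639.7 CPM in control, a ratio of 1.13 (1.06 to 1.20). Nfkbia had a ratio of 1.05 (1.01 to 1.09) and Nfkbie one of 0.84 (0.60 to 1.17). Relb remained lower, at 90.2 CPM in JQ1 and 150.2 CPM in control, a ratio of 0.60 (0.44 to 0.81), where 11.9% of 4515 genes were lower. Relb was also lower, with a ratio of 0.55, among neutrophils without a UMI of a developing-neutrophil gene. Tnfaip3 was higher within the cluster, at 1411 CPM in JQ1 and 894 CPM in control, a ratio of 1.58 (1.43 to 1.74), where 7.38% of genes were higher. Nfkb1 had a ratio of 1.46 there and Nfkbiz one of 1.46, both short of 1.5-fold, beside a median log2 ratio over all genes of -0.14. The comparison within the cluster was chosen after seeing the data.

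**Figure D3:**
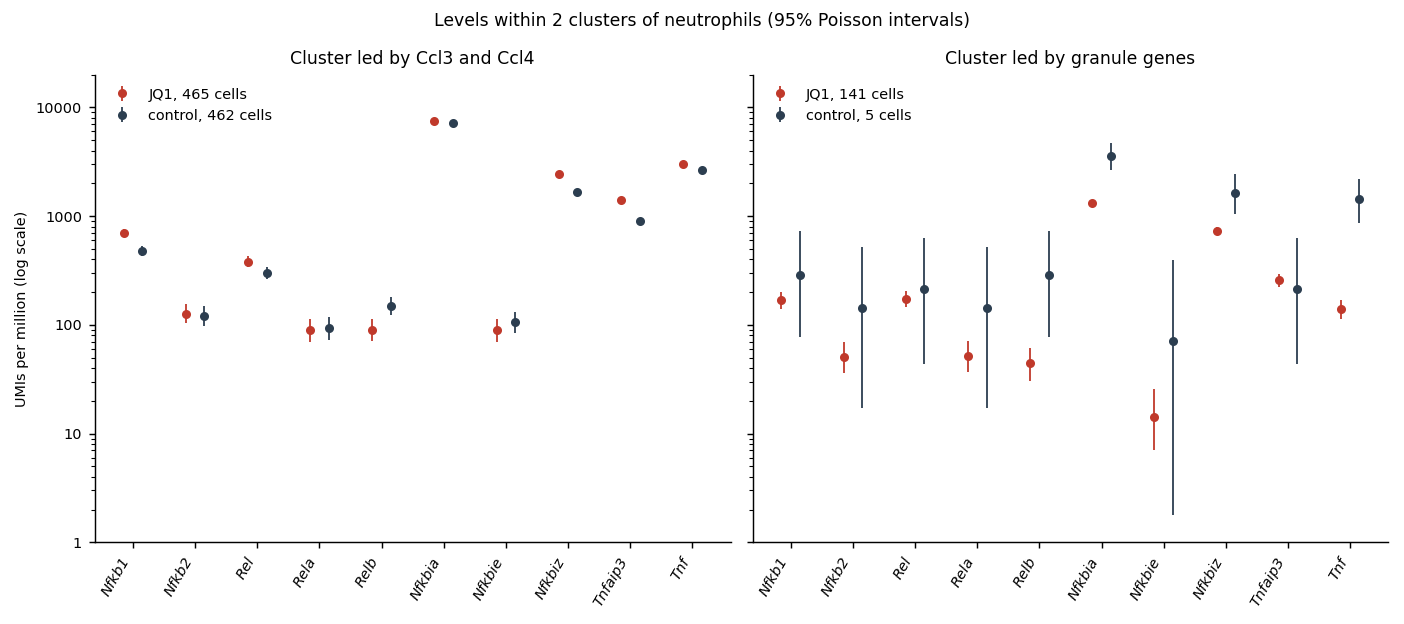
CPM (log scale) of the 10 genes within the neutrophil cluster led by Ccl3 and Ccl4 and within the cluster led by granule genes, for the JQ1 and the control library, with 95% Poisson intervals. The granule cluster holds 141 JQ1 and 5 control cells, and its JQ1 Tnf level of 139 lies far below the 2982 of the other cluster.

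Further genes of the pathway were counted in the same way, in lists whose names are labels. Whether a gene listed as a feedback inhibitor restrained the pathway in these cells was not tested. Of 29 measured NF-kB target genes 15 were lower and 5 higher over all neutrophils. The 5 include Mmp9, which is itself a neutrophil marker used to place cells. The adhesion gene Vcam1 was among the higher ones, at 57.3 CPM in JQ1 and 4.84 CPM in control. The monocyte chemokine Ccl2 was lower at 68.3 CPM in JQ1 and 332 CPM in control and the acute phase gene Saa3 at 886 and 3649 CPM. Of 14 other feedback inhibitors 6 were lower and none higher, among them Ier3 at 1590.0 CPM in JQ1 and 5899 CPM in control and Zc3h12a, an RNase that cuts inflammatory messages, at 112 and 208 CPM. Of 8 kinases 4 were lower, among them Ikbke at 74.4 and 209 CPM, and of 3 other IkB family members Bcl3 (106 and 243 CPM) and Nfkbib (112 and 206 CPM) were lower. Within the Ccl3 and Ccl4 cluster 4 of 26 target genes were lower and 4 higher, and 1 of 13 inhibitors and 2 of 7 kinases were lower. Dissociation and immediate early genes, a class that handling of tissue is known to switch on, were lower for 6 of 16 over all neutrophils, among them Junb (2043 and 4951 CPM), and for 5 of 16 within the cluster. Their part in the Relb difference was not tested.

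In macrophages Nfkbiz, Tnfaip3 and Tnf were higher in JQ1 and Nfkbie was lower. All 10 genes were measured, and 5.71% of 4713 genes were higher and 4.99% lower. Nfkbiz stood at 892 CPM (823 to 965) in JQ1 and 522 CPM (427 to 633) in control, a ratio of 1.71 (1.39 to 2.12). Tnfaip3 stood at 833 CPM in JQ1 and 547 CPM in control, a ratio of 1.52 (1.24 to 1.89). Tnf had a ratio of 2.01 (1.71 to 2.38), opposite in direction to neutrophils, T cells and keratinocytes. Nfkbie stood at 53.0 CPM in JQ1 and 110.4 CPM in control, a ratio of 0.48 (0.28 to 0.85). Of the subunits Rel had a ratio of 0.76 (0.59 to 0.99), and Nfkbia had one of 1.04 (0.95 to 1.14). The median log2 ratio of the 10 was 0.002, against 0.040 over all genes.

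The Tnf and Tnfaip3 values in macrophages depended on few cells. In JQ1 21.7% and in control 57.7% of the Tnf UMIs came from the 5 cells with most of them. With the mean of per-cell CPM the Tnf ratio was 1.38, and with each cell thinned to 1000 UMIs it was 1.43 (1.05 to 1.96), neither of them called. Tnfaip3 had 1.08 and 1.14 under these settings, whereas Nfkbiz had 1.53 and 1.77 and was still called. The per-cell mean has no interval, so the call at 1.53 rests on the fold alone. Thinning, here and below, left out cells with fewer than 1000 UMIs. Among the remaining cells a Tnf UMI was found after thinning in 50.4% (41.6 to 59.2) of JQ1 and 32.0% (19.5 to 46.7) of control macrophages.

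Dendritic transcripts were less frequent in the JQ1 than in the control macrophages. The summed dendritic markers stood at 86.0 CPM in JQ1 and 617 CPM in control macrophages, and Cd207, a gene of Langerhans cells, at 30.1 and 432 CPM. Without the cells holding a Cd207 UMI (8 of 147 in JQ1 and 7 of 55 in control), Tnf had a ratio of 1.91 and Nfkbiz one of 1.51, both still higher. Tnfaip3 then had 1.34 and Nfkbie 0.67 (0.33 to 1.48), and neither was called.

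Of 28 NF-kB target genes 6 were higher and 4 lower in macrophages, with the cytokine Il1a at 622 CPM in JQ1 and 146 CPM in control and Saa3 at 288 and 2841 CPM. Mmp9, a matrix protease, was higher at 84.6 CPM in JQ1 and 0 CPM in control. It is among the 12 neutrophil markers used to place cells, so its level was not independent of the choice of macrophages. Of 6 kinases Ikbkb (67.4 and 156 CPM) and Map3k8 (77.4 and 166 CPM) were lower. None of 13 other feedback inhibitors was called. Dissociation and immediate early genes were higher for 6 of 16, among them the heat shock gene Dnajb1 (936 and 246 CPM) and the immediate early gene Egr1 (885 and 452 CPM), and their part in the higher Nfkbiz and Tnf was not tested.

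In dendritic cells Nfkbiz was higher and none of the other genes was called, with 9 of the 10 measured and Rela not. Nfkbiz stood at 234 CPM (182 to 297) in JQ1 and 107 CPM (65.3 to 165) in control, a ratio of 2.19 (1.32 to 3.81), where 9.86% of 3042 genes were higher and 8.81% lower. The median log2 ratio was 0.24 over the 9 genes and -0.038 over all genes. In JQ1 60.9% and in control 80.0% of these UMIs came from 5 cells. The ratio was 1.35 with per-cell means and 1.10 after thinning, neither called, and 1.86 and still called without cells holding a Cd207 UMI. Tnf had a ratio of 1.18 (0.59 to 2.44), and one of 2.61 (1.16 to 6.61), called higher, when 1 marker more was required of a cell. Dissociation and immediate early genes were higher for 10 of 16, among them Nr4a1 (699.5 and 182 CPM), and their part in the Nfkbiz difference was not tested. Of 21 NF-kB target genes 6 were higher and 5 lower, led by the chemokine Ccl3 at 598 CPM in JQ1 and 21.4 CPM in control.

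In T cells Tnf was lower and none of the other 9 genes was called. Tnf stood at 75.3 CPM (59.7 to 93.8) in JQ1 and 155 CPM (121 to 194) in control, a ratio of 0.49 (0.35 to 0.68), where 3.78% of 6609 genes were lower and 6.67% higher. After thinning, 7.83% (5.22 to 11.2) of JQ1 and 13.4% (8.78 to 19.3) of control T cells held a Tnf UMI, and the thinned ratio of 0.61 (0.36 to 1.05) was not called. Summed neutrophil markers stood at 186 CPM in JQ1 and 169 CPM in control T cells. Tnfaip3 had a ratio of 1.26 (1.14 to 1.39), Nfkbiz one of 1.37 (1.13 to 1.66) and Nfkb1 one of 1.23 (1.06 to 1.42), each with its interval above 1 and under the 1.5-fold threshold. Nfkbia had a ratio of 0.88 (0.82 to 0.94), and the median log2 ratio of the 10 was 0.024, against 0.066 over all genes.

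Most T cells, 277 in JQ1 and 147 in control, lay in a cluster led by Rgs1 and Cd52. Within it Tnf was lower with a ratio of 0.62 (0.41 to 0.95), where 4.2% of genes were lower. Rel was higher there at 390.5 CPM in JQ1 and 245 CPM in control, a ratio of 1.60 (1.24 to 2.07), where 6.54% were higher. Of 23 NF-kB target genes 2 were higher and 3 lower in all T cells. Saa3 was higher at 74.4 CPM in JQ1 and 8.36 CPM in control, while Ccl4 was lower at 96.1 and 234 CPM and Ptgs2, which makes prostaglandins, at 30.1 and 60.6 CPM. Summed fibroblast markers stood at 162 CPM in JQ1 and 16.7 CPM in control T cells. The stroma held Saa3 at 4390 CPM in JQ1 and 2491 CPM in control. The part of free stromal RNA in the Saa3 difference was not tested. Of 13 other feedback inhibitors Birc3 (98.9 and 54.3 CPM) and N4bp1 (177 and 111 CPM) were higher and none was lower.

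**Figure D4:**
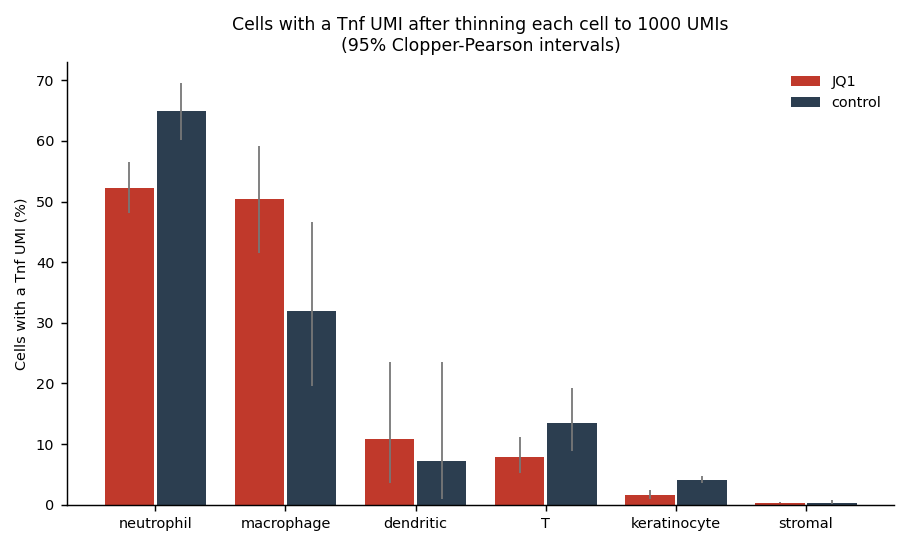
Percentage of cells with a Tnf UMI after thinning to 1000 UMIs, by class, for the JQ1 and the control library, with 95% Clopper-Pearson intervals. Cells with fewer than 1000 UMIs were left out. JQ1 is below control in neutrophils (52.3% and 65.0%) and above it in macrophages (50.4% and 32.0%).

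In keratinocytes Tnf was lower in JQ1, and Nfkbiz was higher at the threshold. The Nfkbiz call held in 5 of 10 planned settings, and it did not hold without a cluster led by gland genes. Of the 10 genes 9 were measured and Nfkbie was not. Tnf stood at 21.4 CPM (19.2 to 23.7) in JQ1 and 47.9 CPM (46.5 to 49.3) in control, a ratio of 0.45 (0.40 to 0.50). Nfkbiz stood at 232 CPM (224 to 239) in JQ1 and 154 CPM (152 to 156) in control, a ratio of 1.504 (1.45 to 1.56), which is at the threshold. The gated cells include 90 JQ1 and 73 control cells of a cluster whose leading genes hold the gland markers Dcpp1, Dcpp2, Dcpp3 and Cyp2f2 and none of the keratinocyte list. Without them Nfkbiz had a ratio of 1.46 (1.41 to 1.52) and was not called, while Tnf had one of 0.45 (0.40 to 0.50) and was still lower. Another cluster, with 849 control cells and 1 JQ1 cell, had 64.1 CPM of Nfkbiz in control. The Nfkbiz ratio without that cluster was not computed. Over 8187 genes 11.0% were higher and 4.93% lower, and the median log2 ratio was 0.12 over the 9 genes, against 0.14 over all genes. The subunits had ratios from 1.06 for Relb to 1.20 for Rela. Nfkbia stood at 1349 CPM in JQ1 and 1808 CPM in control, a ratio of 0.75, and Tnfaip3 had a ratio of 0.82.

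A Tnf UMI was found in 13.3% of JQ1 and 31.5% of control keratinocytes at full depth. After each cell with 1000 UMIs or more was thinned to 1000 UMIs, the shares were 1.60% (0.966 to 2.49) in JQ1 and 4.11% (3.58 to 4.68) in control. Of stromal cells, in which Tnf was not measured and which serve as a background for free RNA, 1.11% in JQ1 and 0.964% in control held one at full depth. After thinning the stromal shares were 0.337% (0.216 to 0.501) in JQ1 and 0.289% (0.0789 to 0.739) in control. Median depths before thinning were 11013.5 and 17330 UMIs in keratinocytes and 3810 and 3137.5 UMIs in stromal cells. Summed neutrophil markers stood at 134 CPM in JQ1 and 114 CPM in control keratinocytes.

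Tnf and its inhibitors varied between keratinocyte clusters, and the libraries filled these unequally. The cluster led by the basal keratin Krt15 held 659 JQ1 and 1421 control cells. Tnf was lower in it at 16.8 CPM in JQ1 and 28.1 CPM in control, a ratio of 0.60 (0.49 to 0.73), where 2.49% of genes were lower and 7.66% higher. The cluster led by Mt4 and Krt13, a keratin of differentiating oral epithelium, held 284 and 855 cells. Tnf had a ratio of 0.61 (0.41 to 0.88) in it and Relb one of 1.62 (1.12 to 2.31), where 2.07% of genes were lower and 15.7% higher. In the cluster led by the gland gene Dcpp3, which is not called keratinocytes here, Tnf had 5 and 19 UMIs, a ratio of 0.28 (0.083 to 0.79), where 9.54% of genes were lower.

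The clusters led by keratins of activated epithelium differed from each other in direction. In the one led by Krt42 and Krt6b, with 94 JQ1 and 1130 control cells, 5 of the genes were lower and none higher, where 11.6% of genes were lower and 17.9% higher. Nfkbia stood there at 787 CPM in JQ1 and 2581 CPM in control, a ratio of 0.30 (0.29 to 0.32). Rel had a ratio of 0.36, Tnfaip3 one of 0.40, Nfkbiz one of 0.66 and Tnf one of 0.59 (0.44 to 0.79). In the one led by Krt16 and Krt17, with 53 and 558 cells, 5 genes were higher and none lower, where 18.9% of genes were higher and 5.02% lower. Nfkb1 stood there at 208 CPM in JQ1 and 101 CPM in control, a ratio of 2.05 (1.77 to 2.36). Nfkb2 had a ratio of 1.86, Rel one of 1.55, Nfkbiz one of 2.18 and Tnfaip3 one of 1.81. Tnf stood at 92.2 CPM in JQ1 and 82.3 CPM in control, a ratio of 1.12 (0.90 to 1.37), and the difference between the clusters was not tested.

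A cluster with Ppbp among its leading genes held 1 JQ1 cell and 849 control cells and could not be compared. Its control cells had 81.3 CPM of Tnf (77.6 to 85.2), against 47.9 CPM over all control keratinocytes. They had 64.1 CPM of Nfkbiz, the lowest level of the 7 clusters of gated control cells. A cluster led by Krt6b and Krt13 held 40 JQ1 and 296 control cells, under the minimum of 50 for a comparison, with 15.5 and 18.8 CPM of Tnf. Within the 4 compared clusters with keratinocyte markers among their leading genes, Tnf was lower in 3, and Nfkbiz was higher in the Krt16 cluster and lower in the Krt42 cluster.

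**Figure D5:**
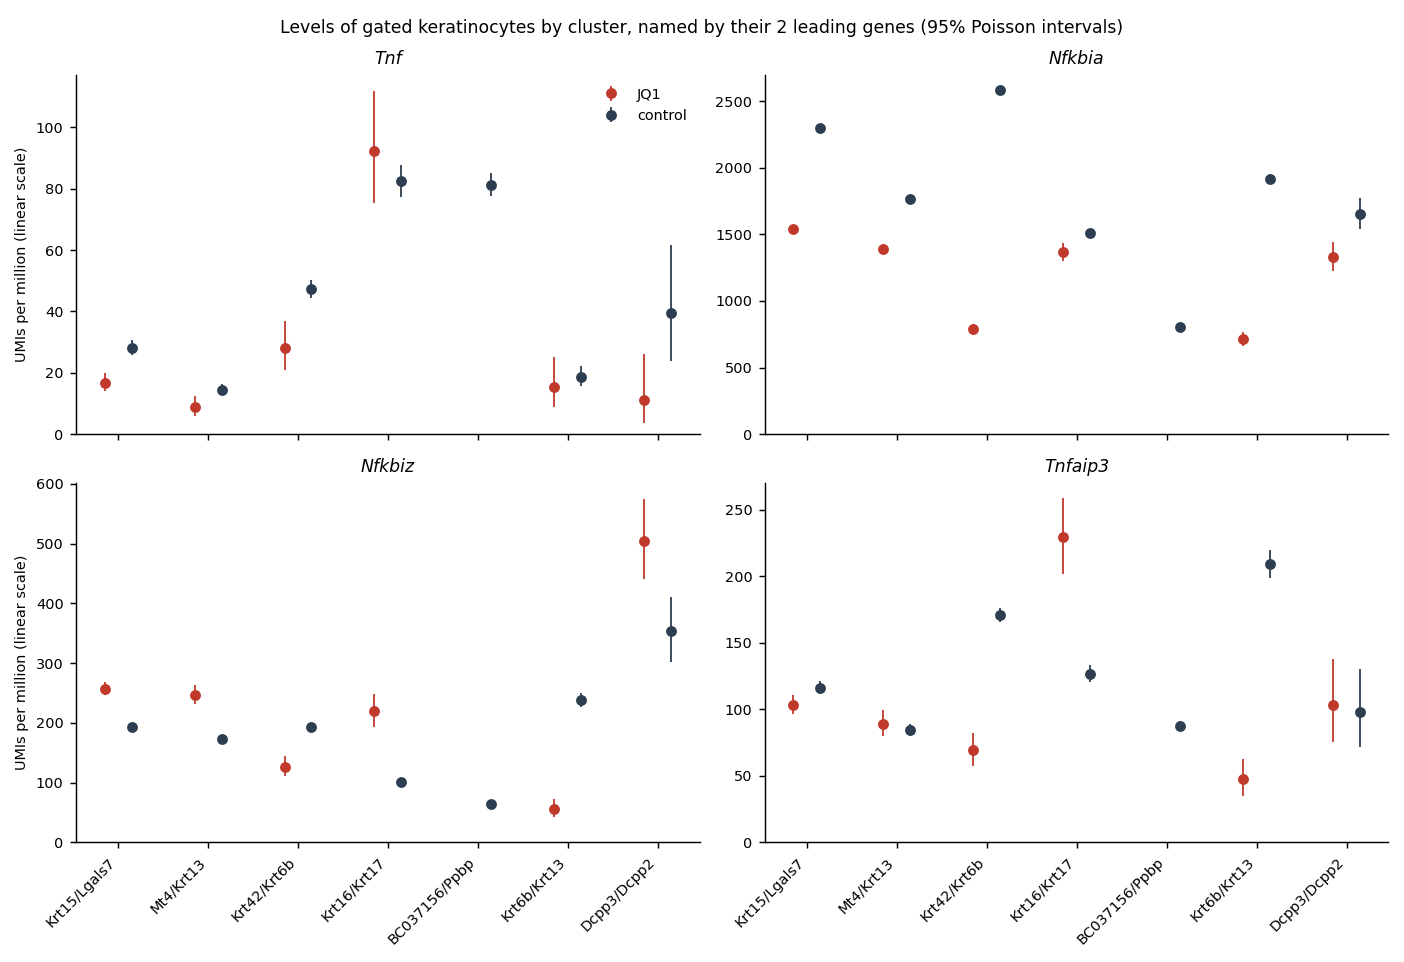
CPM (linear scale) of Tnf, Nfkbia, Nfkbiz and Tnfaip3 in the gated keratinocytes of each cluster, named by 2 leading genes, for the JQ1 and the control library, with 95% Poisson intervals. Nfkbia lies at 787 in JQ1 and 2581 in control in the Krt42/Krt6b cluster, the BC037156/Ppbp cluster has a control value only, and the Dcpp3/Dcpp2 cluster is led by gland genes.

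Over all keratinocytes 8 of 20 NF-kB target genes were lower and 1 was higher. Cxcl5, a chemokine that draws neutrophils, stood at 25.4 CPM in JQ1 and 242 CPM in control, Il1a at 6.93 and 27.6 CPM and Saa3, the higher one, at 24.1 and 3.23 CPM. Summed fibroblast markers stood at 217 CPM in JQ1 and 103 CPM in control keratinocytes. The part of free stromal RNA in the Saa3 difference was not tested here either. Of 12 other feedback inhibitors 2 were higher, Peli1 (62.5 and 35.1 CPM) and Socs3 (137 and 83.9 CPM), and 2 were lower, among them Zc3h12a (34.3 and 51.8 CPM). Among BET protein genes and genes known to respond to BET inhibitors, higher levels were measured for Txnip (129 and 37.0 CPM), Hexim1 (62.9 and 34.4 CPM) and Brd2 (255 and 156 CPM). In other classes Txnip was lower in dendritic cells (88.3 and 166 CPM) and Serpini1 higher in the stroma (15.7 and 8.61 CPM). Txnip and Brd2 were not called in neutrophils (219.6 and 259.9 CPM and 265 and 375 CPM), nor Hexim1 and Txnip in macrophages or Myc and Brd2 in T cells. Dissociation and immediate early genes were higher for 8 of 16, among them Fosb (855 and 267 CPM), and their part in the Nfkbiz difference was not tested.

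In the stroma Nfkbia was lower and none of the other genes was called, with 9 of the 10 measured and Tnf not. Nfkbia stood at 2033 CPM (2018 to 2048) in JQ1 and 3134 CPM (3089.7 to 3179) in control, a ratio of 0.65 (0.64 to 0.66), where 2.45% of 9157 genes were lower and 5.38% higher. The 9 genes had a median log2 ratio of -0.20, beside 0.079 over all genes. Each stromal type had the same direction without passing 1.5-fold: the ratio was 0.69 (0.67 to 0.70) in fibroblasts, 0.67 (0.66 to 0.69) in endothelial cells and 0.72 (0.68 to 0.77) in pericytes. After thinning, 71.4% of JQ1 and 82.5% of control stromal cells held an Nfkbia UMI.

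The stromal types had different values of other genes. In fibroblasts Nfkb1 was lower at 295 CPM in JQ1 and 489.9 CPM in control, a ratio of 0.60 (0.57 to 0.64), where 2.44% of genes were lower and 5.93% higher. Nfkb1 stood at 209 and 212 CPM in endothelial cells and 317 and 244 CPM in pericytes. Nfkbiz had a ratio of 1.47 (1.38 to 1.58) in endothelial cells, 0.91 in fibroblasts and 0.98 in pericytes, and differences between the types were not tested. None of the genes was called in endothelial cells, where 2.94% of genes were lower and 7.5% higher, or in pericytes, where 3.5% were lower and 7.79% higher. Of 27 NF-kB target genes 7 were higher and 4 lower in the stroma, with Cxcl3 at 70.2 CPM in JQ1 and 6.13 CPM in control, Ccl4 at 40.7 and 5.46 CPM and Mmp9 at 3.07 and 11.9 CPM. Dissociation and immediate early genes were higher for 2 of 16 and lower for none.

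Across the 6 classes Nfkbia had its whole interval under 1 in neutrophils, T cells, keratinocytes and stroma. In the neutrophil cluster led by Ccl3 and Ccl4, however, its ratio was 1.05 (1.01 to 1.09). Nfkbiz had its whole interval above 1 in macrophages, dendritic cells, T cells, keratinocytes and stroma. In the stroma Nfkbiz stood at 451 CPM in JQ1 and 415 CPM in control, beside a median log2 ratio over all genes of 0.079. Of the stromal types only endothelial cells had an Nfkbiz ratio above 1. Among the compared clusters of gated keratinocytes, Nfkbiz had a ratio of 0.66 (0.57 to 0.75) in the Krt42 cluster and ratios above 1 in the others. Both statements on whole intervals use the interval without the 1.5-fold threshold, and the share of all genes passing it was not counted. Rela was called in none of the 6.

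Levels of other genes were compared with those of Tnf and Nfkbia over the 12 class and library values, as log2(CPM + 1), among 5798 genes. The genes most like Tnf by Pearson's r were Adam8 (0.93), Tmem189 (0.91), Ccdc88b (0.91), and those most like Nfkbia were Selenok (0.96), Zswim4 (0.93), Grina (0.90). The 12 values share 2 libraries and their depth, so these figures describe the order of classes.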

How the data were processed

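Tongue tumour cells were profiled with the 10x Genomics 3' v3.1 kit, 1 library per treatment. The authors deposited raw UMI counts; mm10, Seurat 4.0.0 and Cell Ranger 3.1.0 come from the submitters' processing notes. Cells needed 200 genes and a mitochondrial share below 20%. Scrublet (scanpy 1.11.5) removed 424 JQ1 barcodes (2.93%) and 119 control barcodes (1.44%).

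A cell joined the class with the highest share of its markers detected, with a minimum of 3 markers (6 for keratinocytes, 5 for glands and erythroid cells, 2 for dendritic cells). It was left out if a further class reached more than 0.5 of that share, except among stromal types. These minimums were set after seeing marker counts. Ratios used exact conditional intervals, with 0 counts set to 3 per library for the value, and the step was tested on simulated Poisson counts. Such counts follow the model behind the intervals and leave out the spread between cells. Joint Leiden clusters (leidenalg 0.10.2, scikit-learn 1.9.0) used 2000 variable genes, 30 components, 15 neighbours and resolution 1.0. The code ran on pandas 2.3.3, scipy 1.17.1, numpy 2.4.6, matplotlib 3.10.9 and Python 3.11.15.

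The genes and lists were chosen with earlier results of these data known. The 10 genes are named in every class; of 7 pathway lists, named genes come from the 3 per class with the largest ratio and at least 50 UMIs, and the 3 genes most like Tnf and Nfkbia are named. Alternatives changed the gate, cell filters, doublets, scaling, summing and depth one at a time. One gene, and the counts of the list that holds it, are not reported here.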

Additional observations from a re-analysis of the deposited data

Results flagged for a closer look

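Tnf differed in opposite directions between classes under the same comparison. Its ratio of JQ1 over control was 2.01 in macrophages, against 0.617 in neutrophils, 0.487 in T cells and 0.447 in keratinocytes. With 1 library per treatment the difference between classes was not tested. Within the neutrophil cluster led by Ccl3 and Ccl4 the ratio was 1.13, and in control macrophages 57.7% of the Tnf UMIs came from 5 cells. In keratinocytes the ratio was 0.60, 0.59 and 0.61 in the clusters led by Krt15, Krt42 and Mt4, and 1.12 in the Krt16 cluster. It was 0.28 in the Dcpp3 cluster led by gland genes. A further cluster, with 849 control cells and 1 JQ1 cell, had 81.3 CPM of Tnf in control. The T cell call did not hold after thinning.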

How the results depend on the processing

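No paired analysis was possible because each treatment has 1 library. Over 57 values and 15 planned settings, 547 of 646 recomputed values moved by less than their counting interval, 99 moved further and none reversed a call. Among these settings, dropping the filter on measured genes left all 57 values and their calls unchanged by construction. That setting is also included in the numbers of calls held below. Per-cell means, included there too, have no interval and were called on the fold alone. Over the 93 values recomputed under settings chosen after seeing the data, 45 moved by less than that interval, 44 moved further and 4 reversed a call. In neutrophils the median log2 ratio of the genes was -0.39 over all cells, 0.054 without cells holding UMIs of developing-neutrophil genes and 0.13 in the Ccl3 and Ccl4 cluster, where Nfkbia had a ratio of 1.05 and Tnf one of 1.13. In keratinocytes the median was 0.12 over all cells, -0.61 in the Krt42 cluster, 0.63 in the Krt16 cluster, 0.35 in the Dcpp3 cluster led by gland genes and 0.087 without that cluster. Nfkbiz had a ratio of 0.66 in the Krt42 cluster and Tnf one of 1.12 in the Krt16 cluster. In the stroma the median was -0.20 over all cells and 0.29 in pericytes alone. The cluster settings were chosen after seeing the data, and the cause of these differences was not tested. Scaling by the median ratio of all genes gave a neutrophil median of -0.57. Calls held in 12 of 12 settings for Relb in neutrophils, 11 of 11 for Nfkbiz, 9 of 11 for Tnf and 7 of 11 for Tnfaip3 in macrophages, 10 of 10 for Tnf and 5 of 10 for Nfkbiz in keratinocytes, 10 of 11 for Tnf in T cells and 9 of 12 for Tnf in neutrophils. Joint clusters gave no dendritic class and so no value there. Their macrophage class was a cluster of 351 JQ1 and 194 control cells, against 147 and 55 gated macrophages. Its cells held 27.4% of the macrophage markers on average, and this setting is counted among the 11. Dendritic cells were few, 46 in JQ1 and 29 in control, and their Rela had 13 and 6 UMIs, too few to be measured at this depth.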

Other observations

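Cells outside the 6 classes also held these genes and were not compared between the libraries. In mast cells, 14 in JQ1 and 12 in control, Nfkbiz stood at 1327 and 1117 CPM and Tnf at 114 and 254 CPM. Schwann cells, 498 in JQ1 and 13 in control, had 1146 and 2618 CPM of Nfkbia. Salivary gland cells, 1006 in JQ1 and 73 in control, had 457 and 639 CPM of Nfkbia and 19.0 and 40.0 CPM of Tnf. The 216 erythroid cells, all of the JQ1 library, had 351 CPM of Nfkbia.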
